A study of Homo sapiens with 2 samples.

Results

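The 37 genes described here code for the machinery that copies DNA in S phase, the stage of the cell cycle in which the genome is duplicated. They were taken from a list of gene symbols and were 37 of 36601 features in the count tables. All were followed across single cells of 2 libraries, at day 160 and at day 220 of differentiation. The cells were labelled as astrocyte progenitors, were grown from the human embryonic stem cell line H7, and both libraries carry the agents LIF, BMP4 and FGF1 in their labels. Per the labels' protocols, each library pooled 3 separate differentiations on a 10x Genomics Chromium 3′ kit, and no label tells the 3 apart within a library. With 1 library per day there was no replicate, so no test was made and the intervals given cover counting error only.

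DNA replication starts when the MCM2-7 ring is loaded at origins in G1 by CDC6 and CDT1. It fires when cyclin E-dependent and other kinases recruit CDC45 and the GINS complex to turn that ring into an active helicase. Polymerase alpha with primase lays down the primers, the RFC complex loads the sliding clamp PCNA, and the polymerases delta and epsilon extend the strands while ribonucleotide reductase and thymidylate synthase supply the building blocks. E2F transcription factors switch many of these genes on at the entry into S phase, and the CCAAT box, bound by NF-Y, is common in genes of the cell cycle. In neural tissue, progenitors divide and most neurons do not, which makes these genes a common readout of cycling cells.

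The libraries differed in size and depth. At day 160, 9972 of 13018 barcodes had at least 1000 detected genes and at most 15% mitochondrial UMIs, and these cells held a median of 10457.5 UMIs. At day 220, 524 of 676 barcodes passed, with a median of 46438 UMIs. The day 220 library is assigned by its title and time label, although its protocol states the earlier day, and its deposited name starts with another prefix, which no label explains, so time and any other difference between the cultures cannot be told apart. Of the kept barcodes, 2 occurred in both libraries. All 11 radial glia markers reached 10 CPM (counts per 1000000) at both days. So did 8 of 12 astrocyte, 9 of 12 neuron and 9 of 10 interneuron precursor markers at day 160. At day 220 the counts were 7, 7 and 10 in that order. All 8 microglia and all 6 endothelial markers were under 1 CPM. Between the days, the summed markers went from 3530.6 to 2983.8 CPM for astrocytes, from 12040 to 12845 CPM for radial glia, from 773.9 to 689.4 CPM for neurons and from 1746.8 to 740.5 CPM for interneuron precursors. They went from 400.8 to 575.8 CPM for the oligodendrocyte lineage, from 535.5 to 599.2 CPM for mesenchymal genes and from 25.9 to 23.9 CPM for pluripotency genes. Scrublet marked 583 of the day 160 cells and 6 of the day 220 cells as doublets, and these were kept in the main values.

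Short stretches of the members' promoters show the sequence feature that most of them share. The letters searched were TTTCCCGC, TTTCGCGC, TTTGGCGC and TTTGCCGC, which resemble known E2F sites, on both strands in 300-base promoters that run from 250 bases before to 50 bases after the gene start in RefSeq (GRCh38.p14). Of 37 members, 31 matched a promoter by symbol, and 19 of these 31 (61.3%) held at least 1 of the E2F-type strings, against 908 of all 27303 promoters (3.33%). MCM4, MCM5, GINS4, CCNE2, RPA2 and RPA3 were not matched. The windows below are 30 bases long, 5′ to 3′ on the gene's strand, with E2F-type letters in capitals, and they were picked to show helicase, licensing, clamp and nucleotide genes side by side.
MCM2: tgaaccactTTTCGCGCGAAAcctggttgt
MCM3: cggatggtacgTTTCCCGCcaccgcggggc
MCM6, far pair: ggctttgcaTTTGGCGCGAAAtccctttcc
MCM6, near pair: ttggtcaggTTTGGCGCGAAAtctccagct
CDT1: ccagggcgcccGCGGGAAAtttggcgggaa
E2F1: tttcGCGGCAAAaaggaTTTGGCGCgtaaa
PCNA: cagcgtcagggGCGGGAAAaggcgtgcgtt
TYMS: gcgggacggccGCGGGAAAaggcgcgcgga
HELLS: aaccgcaagctGCGCCAAAtctcgcgcagc

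MCM6 held 4 matches in 2 pairs, and in each pair a TTTGGCGC on the gene's own strand overlapped a TTTCGCGC on the opposite strand. The near pair lies at chr2:135876513-135876542 on the minus strand, and its capitals run from 90 to 79 bases before the gene start. MCM2 carried an overlapping pair just after its start, at chr3:127598404-127598433 on the plus strand, and E2F1, itself a member of the factor family, carried 2 matches within 33 bases before its start at chr20:33686393-33686422 on the minus strand. The PCNA window lies at chr20:5126663-5126692 on the minus strand, and the windows of TYMS (chr18:657603-657632), CDT1 (chr16:88803743-88803772) and HELLS (chr10:94545701-94545730) on the plus strand. The MCM3 window shown lies at chr6:52284898-52284927 on the minus strand. The windows shown for MCM3, MCM6, PCNA and HELLS overlap no exon in GENCODE release 29, while the windows of MCM2, CDT1, E2F1 and TYMS overlap an exon of their own gene. MCM3 and HELLS each had a further window, not shown, that overlaps an exon of its own gene. At least 2 matches were found in 6 members (19.4%), which were MCM2, MCM3, MCM6, MCM7, E2F1 and HELLS, and in 42 of all promoters (0.154%). Among genes that passed the expression minimum between the days, 471 of 8093 (5.82%) held a match.

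Members without E2F-type letters in this window included RRM2, TK1, PCLAF, CDC45, RRM1, FEN1 and PRIM1. RRM2, the small subunit of ribonucleotide reductase, instead held 3 copies of CCAAT, shown here in capitals to display their like surroundings.
RRM2, far copy: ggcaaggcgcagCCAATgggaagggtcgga
RRM2, middle copy: ggcatggcacagCCAATgggaagggccggg
RRM2, near copy: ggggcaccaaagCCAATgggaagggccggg

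The RRM2 windows lie on the plus strand at chr2:10122604-10122633, chr2:10122634-10122663 and chr2:10122661-10122690, with all copies within 123 bases before the gene start in RefSeq. Each of these windows overlaps an exon of RRM2 in GENCODE. The gene position given further on for RRM2 starts before the windows, at chr2:10120698, so the windows lie inside that span. CCAAT, on either strand, was found in 18 of the 31 member promoters (58.1%), in 26 of 33 promoters of mitotic genes (78.8%) and in 9747 of all promoters (35.7%). E2F-type letters were found in 3 of the 33 mitotic promoters (9.09%) and in 10 of 42 promoters of other replication genes (23.8%). The replication genes thus held E2F-type letters in a larger share of promoters than the mitotic list, and CCAAT in a smaller share. A match is a description of letters, not of binding. The members' median GC content was 67.3%, against 58.3% for all promoters and 65.7% for genes that passed the expression minimum between the days.

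Over all kept cells, the replication genes were lower at day 220. Their summed level was 1376.7 CPM at day 160 and 593.3 CPM at day 220, which was 2.32-fold lower (2.28 to 2.36). Of the 37 genes, 33 reached 10 CPM in at least 1 library and were counted. Of these, 25 were at least 2-fold lower at day 220, beside 5.15% of all 10167 genes counted, and 1 was at least 2-fold higher, beside 22.8% of all genes. GINS3, CCNE1, POLE and POLE2 stayed under 10 CPM in both libraries. The median log2 ratio of the 33, taken as log2 of day 220 CPM + 1 over day 160 CPM + 1, was -1.28, against 0.14 for all counted genes. The counting interval of the CPM ratio lay below 1 for 34 of the 37 genes, spanned 1 for RFC3 and POLE2, and lay above 1 for POLA1. Intervals were not counted over all genes, so this count has no background beside it. From sums alone, fewer cycling cells and less RNA per cell cannot be told apart, and the values per cell are given further on.

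**Figure D1:**
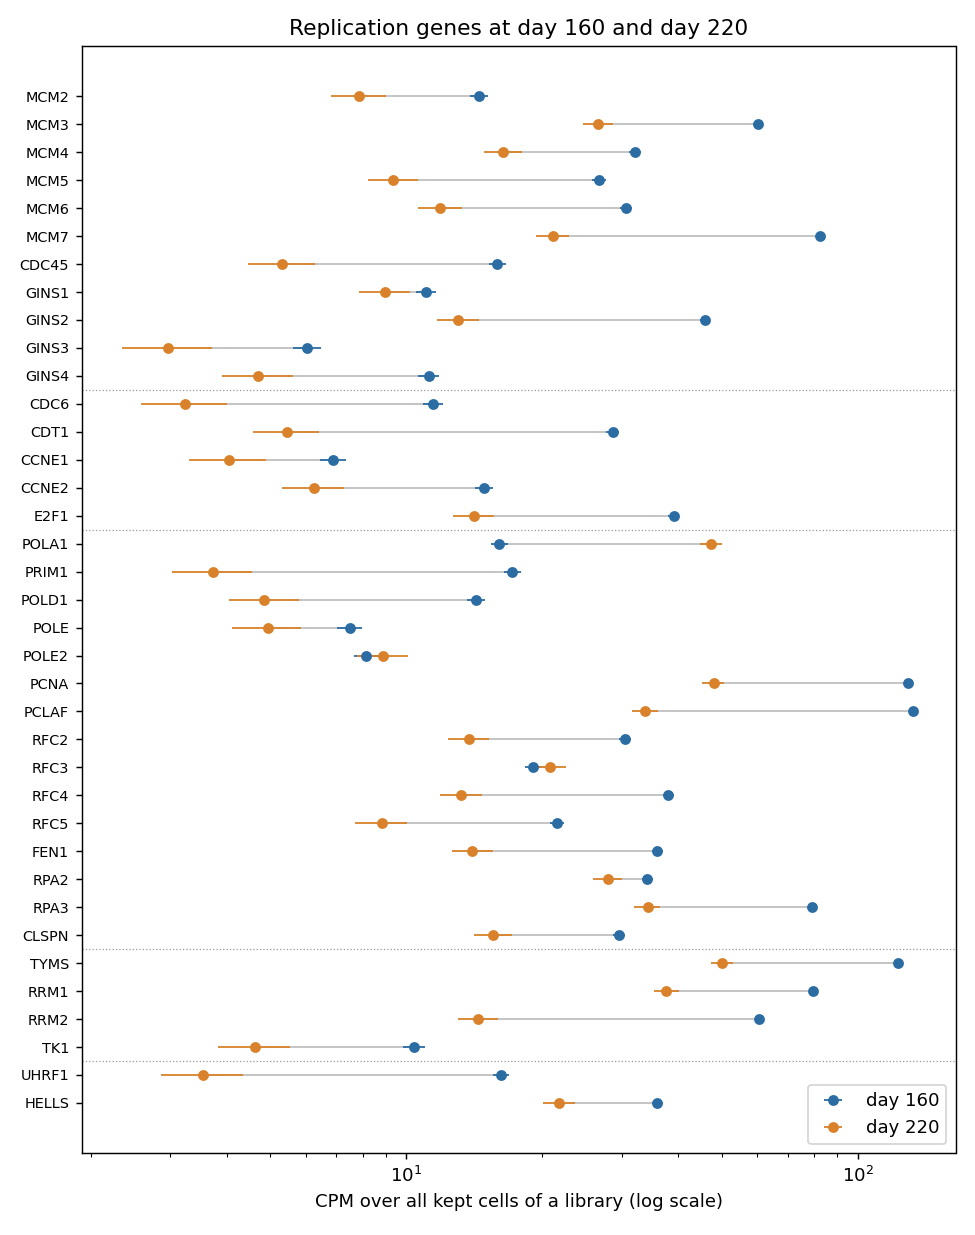
Level of each of the 37 replication genes in CPM (log axis) over all kept cells at day 160 (blue) and day 220 (orange), with 95% Poisson intervals for counting error and dotted lines between roles. The orange points lie left of the blue points for all genes but POLA1, RFC3 and POLE2.

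All 11 helicase genes measured lower at day 220. MCM2, MCM3, MCM4, MCM5, MCM6 and MCM7 form the ring that unwinds DNA, and they measured 14.5, 60.02, 32.1, 26.7, 30.7 and 82.7 CPM at day 160. At day 220 the same genes measured 7.85, 26.6, 16.4, 9.35, 11.9 and 21.1 CPM. All 6 were lower at day 220, from 1.85-fold for MCM2 to 3.92-fold (3.60 to 4.28) for MCM7. CDC45, which binds the ring to activate it, went from 15.9 to 5.31 CPM. Of the 4 GINS subunits that complete the helicase, GINS2 went from 45.9 to 13.1 CPM (3.52-fold lower), GINS4 from 11.2 to 4.70 CPM and GINS3 from 6.03 to 2.96 CPM. GINS1 moved least of this group, from 11.1 to 8.97 CPM, 1.23-fold lower (1.07 to 1.42). Of the 10 helicase genes counted, 7 were at least 2-fold lower, with a median log2 ratio of -1.22.

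The licensing and entry genes held the member with the largest fold. CDT1, the loader of the MCM ring that is destroyed once S phase begins, went from 28.7 to 5.43 CPM, 5.28-fold lower (4.46 to 6.30). It lies at chr16:88803213-88809258 on the plus strand (GRCh38, as are the gene positions that follow). The starts of these gene positions can differ from the RefSeq starts used for the promoters, as for CDT1 and RRM2. CDC6, the partner of CDT1 in loading, went from 11.5 to 3.23 CPM, 3.54-fold lower. The activating factor E2F1 (chr20:33675683-33686404, minus strand) went from 39.2 to 14.1 CPM, 2.77-fold lower. Cyclin E2, from CCNE2, went from 14.9 to 6.24 CPM and cyclin E1, from CCNE1, from 6.88 to 4.04 CPM. All 4 counted genes of this group were at least 2-fold lower, with a median log2 ratio of -1.48.

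The polymerase and clamp genes varied most in direction. PRIM1, the catalytic primase subunit, went from 17.2 to 3.73 CPM, 4.60-fold lower (3.75 to 5.70). Its partner in the same enzyme complex, POLA1, went the other way, from 16.1 to 47.3 CPM, 2.94-fold higher (2.74 to 3.16), although against genes of like intron length it stood at -0.16 on the log2 scale. The catalytic subunits of polymerase delta and epsilon were lower at day 220, with POLD1 going from 14.2 to 4.85 CPM and POLE from 7.497 to 4.93 CPM. POLE2, the second subunit of polymerase epsilon, measured 8.15 and 8.89 CPM. As measured, the genes of 1 enzyme complex did not keep a common ratio between the libraries.

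PCNA, the sliding clamp (chr20:5114953-5126626, minus strand), went from 129 to 48.0 CPM, 2.69-fold lower (2.54 to 2.85). PCLAF, a small PCNA-binding protein, went from 133 to 33.8 CPM, 3.93-fold lower (3.67 to 4.21). Both clamp genes were thus lower at day 220 by more than the counting intervals. Of the clamp loader subunits, RFC2, RFC4 and RFC5 went from 30.6, 38.1 and 21.6 CPM to 13.7, 13.2 and 8.81 CPM. RFC3 measured 19.1 and 20.8 CPM, with a ratio of 1.09 (0.991 to 1.20). FEN1, the nuclease that trims Okazaki fragments, went from 36.0 to 14.0 CPM, and CLSPN, the fork checkpoint mediator claspin, from 29.6 to 15.6 CPM. The single-strand binding subunits differed, since RPA3 went from 79.3 to 34.3 CPM (2.32-fold lower) and RPA2 from 34.2 to 27.9 CPM (1.23-fold lower, 1.13 to 1.33). In this group, 9 of 13 counted genes were at least 2-fold lower and POLA1 alone was at least 2-fold higher.

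The nucleotide genes were all at least 2-fold lower. RRM2, the regulated subunit of ribonucleotide reductase (chr2:10120698-10131419, plus strand), went from 60.6 to 14.4 CPM, 4.195-fold lower (3.78 to 4.67). RRM1, the large subunit, went from 79.5 to 37.7 CPM, 2.11-fold lower, so the pair differed in fold beyond their counting intervals. TYMS, thymidylate synthase (chr18:657604-673578, plus strand), went from 123 to 50.1 CPM, 2.45-fold lower. TK1, the thymidine kinase of the salvage route, went from 10.4 to 4.62 CPM, 2.25-fold lower. Of the chromatin genes, UHRF1, which brings maintenance methylation to new DNA, went from 16.2 to 3.54 CPM (4.58-fold lower). HELLS, a chromatin remodeler, went from 36.0 to 21.8 CPM (1.65-fold lower).

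Of the 3 members that were not lower at day 220, POLA1 and RFC3 hold the most intron sequence of all 37. POLA1 holds 296732 and RFC3 145636 intron bases in GENCODE release 29, and 4 members have over 100000. The median log2 ratio was -0.29 for these 4 (GINS3, POLA1, RFC3 and HELLS) and -1.28 for the other members. When each ratio was set against the median of genes of like intron length, 22 of the 33 counted members were at least 2-fold lower, beside 7.53% of all genes, and 0 were at least 2-fold higher, beside 10.4%. All 33 were then below 0, with a median of -1.17, and POLA1 and RFC3 stood at -0.16 and -1.17. The sources used here do not say whether reads in introns were counted, and the part of intron reads in these ratios was not tested. Counts of some members are uncertain for another reason: 15 of the 37 share exon bases with another measured gene, mostly on the opposite strand, and use of strand in the counting is not stated. TYMS shares 967 exon bases with ENOSF1, CCNE2 shares 1629 with INTS8, MCM7 shares 392 with AP4M1 and PRIM1 shares 33 with NACA on the same strand.

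Other lists of the cell cycle were set beside the members. All 38 mitotic genes were at least 2-fold lower at day 220, with a median log2 ratio of -1.77. Among them UBE2C, a ubiquitin enzyme of mitotic exit, was 6.98-fold lower, the mitotic kinase gene CDK1 6.80-fold, CDC20 7.16-fold and the cyclin gene CCNB2 5.56-fold. Of 51 other replication and repair genes, 40 were counted, 10 were at least 2-fold lower and 3 at least 2-fold higher, with a median of -0.51. GMNN, the geminin gene whose product holds CDT1 in check, went from 48.7 to 10.8 CPM, while the origin recognition gene ORC2 went from 8.16 to 30.1 CPM. MCM10 and RAD51AP1 were 3.63-fold and 3.05-fold lower. Of 29 genes that control G1, 24 were counted, 3 were at least 2-fold lower and 5 at least 2-fold higher. For each of these lists the shares over all genes are the 5.15% and 22.8% given above, and the higher count of the G1 list is near that background. The CDK inhibitor genes parted here, since CDKN2C went from 60.8 to 11.3 CPM while CDKN2A went from 41.6 to 198 CPM and CDKN2B from 5.47 to 22.3 CPM. MYCN, a growth-promoting factor, was 4.19-fold lower, at 3.58 CPM at day 220.

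Cells were then compared at equal depth. Each cell was thinned at random to 5000 UMIs, which left 9279 cells at day 160 and 494 at day 220 and dropped 693 and 30 shallower cells. A cell held a median of 2 summed UMIs of the 37 genes at day 160 and 1 at day 220, and the 90th percentile was 22 and 5 UMIs. The highest cell held 75 UMIs at day 160 and 45 at day 220. In both libraries most cells thus held few of these RNAs and a tail of cells held many. The top 10% of cells held 50.1% of all member UMIs at day 160 and 55.2% at day 220.

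At least 5 member UMIs were found in 2916 of 9279 cells at day 160 (31.4%, 30.5 to 32.4) and in 57 of 494 cells at day 220 (11.5%, 8.86 to 14.7). At 10 or more UMIs the shares were 20.9% and 5.47%, and at 20 or more 11.7% and 3.64%. Day 160 had the larger share at each of these levels. Without thinning, the shares for 5 or more were 51.1% and 86.3%, so the order of the days turned round with depth. Cells with 4 to 6 UMIs, near the limit of 5, made up 11.9% and 9.92%. Cells at or above 5 held a mean of 18.3 member UMIs at day 160 and 15.2 at day 220, and cells below it 1.60 and 1.45.

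**Figure D2:**
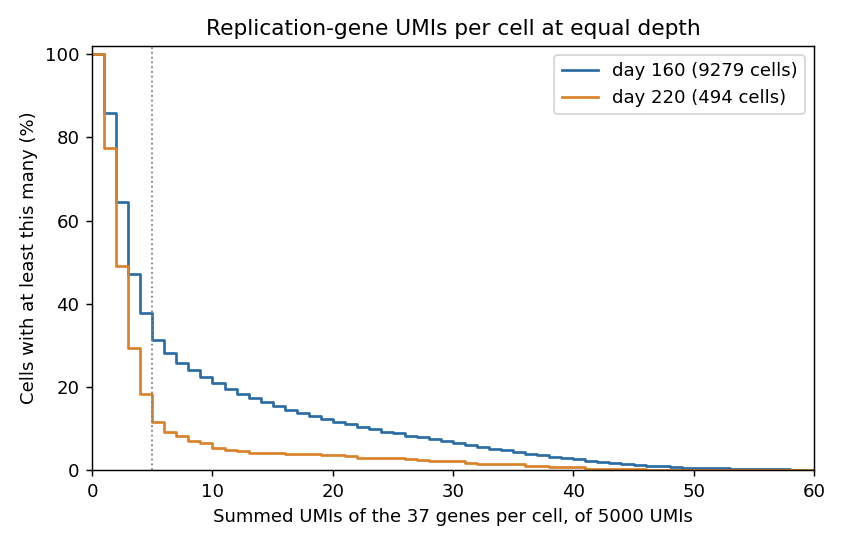
Share of cells (percent) with at least a given number of summed UMIs of the 37 replication genes, after thinning each cell to 5000 UMIs, for 9279 day 160 cells (blue) and 494 day 220 cells (orange). At the dotted line, 5 UMIs, the curves stand at 31.4% and 11.5%.

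Gene by gene, 33 of the 37 members were found in a smaller share of thinned cells at day 220. The same count was not made over all genes, so it has no background beside it. PCNA had a UMI in 33.0% of cells at day 160 and 13.8% at day 220. MCM7 went from 26.4% to 9.31%, PCLAF from 23.1% to 7.29% and RRM2 from 13.9% to 3.04%. The measured share of cells was thus lower at day 220 for these genes, as was the sum. No expression is read from the day 220 shares of PCNA and MCM7, for the reason given in the next paragraph. POLA1 went from 7.55% to 18.8%. The others not smaller at day 220 were GINS1 (4.85% and 4.86%), POLE2 (3.59% and 4.86%) and RFC3 (7.93% and 8.70%). For these others the counting intervals of the days overlapped. Without thinning, 25 members had the larger share at day 220.

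As a background, shares were read in day 160 cells with few signs of division, a cluster of 400 cells led by SST, FABP5 and POU3F4. In this cluster 7 of 12 neuron markers were at least 2-fold above the other cells. Whether its member UMIs came from free RNA or from low expression was not tested. Of its 342 thinned cells, 0.292% held 5 or more mitotic UMIs, and its median depth was 6903.5 UMIs against 10457.5 for all cells. PCNA was found in 17.5% of these cells, MCM7 in 18.4%, RPA3 in 18.7% and RRM1 in 14.6%. TYMS was found in 7.31%, PCLAF in 3.22% and RRM2 in 0.585%, while CDC6 and TK1 were found in 0 of 342 cells, which at 3 cells of the total allows a share of up to 0.877% of cells with a UMI. Shares in this cluster thus differed widely between members. For 12 of the 37 members, PCNA, MCM7 and RPA3 among them, the share over all day 220 cells was not above the share in this cluster, and no expression is read from those shares. The cluster comes from the day 160 library, and free RNA at day 220 was not measured. In day 220 cells with 5 or more mitotic UMIs, PCNA measured 273 CPM, against 23.2 CPM in cells with none.

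Within a library, the members sat in the same cells as mitotic RNA. Thinned cells were split by the sum of 38 mitotic genes, none of which is a member. At least 5 mitotic UMIs were found in 2337 cells (25.2%) at day 160 and in 30 cells (6.07%) at day 220. Of these cells, 83.3% and 93.3% also held 5 or more member UMIs, against 7.86% and 3.09% of cells with 0 mitotic UMIs. All 37 members were at least 2-fold higher in the mitotic cells than in cells with 0 mitotic UMIs, at day 160 beside 6.59% of genes outside the mitotic list and at day 220 beside 16.3%. A gene was counted here with 10 CPM or more in either group, so a member could pass through the mitotic cells alone. RRM2 did so at day 220, with 32 and 0 UMIs. The shares of other genes followed the same rule. At day 220 the counting interval spanned 1 for POLD1 (2 and 5 UMIs) and GINS3 (2 and 3 UMIs). Without thinning 11 of 22 counted members were at least 2-fold higher, and no share over other genes was made for that count. The median log2 ratio over the members was 2.72 at day 160 and 3.09 at day 220.

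**Figure D3:**
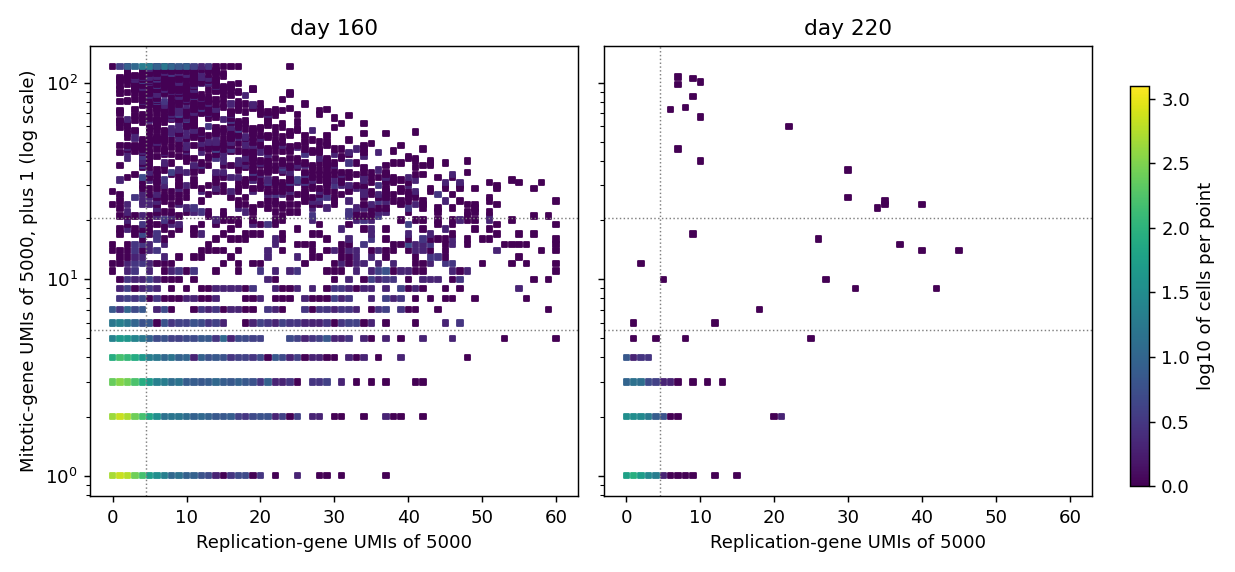
Summed UMIs of the 37 replication genes (x axis) against summed UMIs of 38 mitotic genes plus 1 (y axis, log scale) per cell of 5000 UMIs, with colour for the log10 number of cells at a point. Counts above 60 and 120 are drawn at those limits, dotted lines mark 5 replication-gene UMIs and 5 and 20 mitotic UMIs, and 25.2% of day 160 cells against 6.07% of day 220 cells have 5 or more mitotic UMIs.

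The members differed in how tightly they kept to dividing cells. At day 160 RRM2 measured 201 CPM in cells with 5 or more mitotic UMIs and 1.01 CPM in cells with none, a 198-fold difference (113 to 384). TK1 measured 33.2 and 0.338 CPM, PCLAF 441 and 8.19 CPM, and CDC6 34.0 and 0.845 CPM. RPA2 showed the smallest difference, with 55.5 and 24.6 CPM (2.26-fold), followed by POLA1 at 3.29-fold and RFC2 at 3.34-fold. A further measure was the share of a gene's UMIs that lay in cells with 5 or more UMIs of the other members. It was 96.2% for CDC6, 96.0% for CDC45, 95.3% for TK1, 94.7% for CLSPN and 94.3% for RRM2, in about 31% of the cells, with a median of 81.5% over the members. At day 220 the median was 52.3%, in 10.3% to 11.5% of the cells, with RPA2 at 22.4% and POLA1 at 33.6%. At day 160 the lowest shares were 63.6% for RPA3, 63.5% for RFC2, 62.9% for POLA1 and 51.8% for RPA2. In the SST-led cluster that served as background, RPA3, RPA2, RFC2 and POLA1 had a UMI in 18.7%, 11.4%, 9.94% and 5.85% of cells.

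Days were also compared within cells of like mitotic content. In cells with 5 or more mitotic UMIs, the summed members measured 3625.2 CPM at day 160 and 4026.7 CPM at day 220, a ratio of 1.11 (1.02 to 1.20) that rests on 30 cells at day 220. For single genes, the counting interval of this ratio spanned 1 in 31 of 37 members. Intervals were not counted over other genes, here or in cells with 0 mitotic UMIs. MCM7 was the member with an interval below 1, at 209 and 107 CPM (0.511, 0.291 to 0.831). Intervals lay above 1 for POLA1 (33.3 and 193 CPM, 5.81-fold), TK1 (33.2 and 100 CPM, 3.01-fold), RFC3 (54.8 and 127 CPM, 2.31-fold), CLSPN (1.93-fold) and TYMS (1.31-fold). These ratios are not centred on intron length, which turned POLA1 and RFC3 below 0 over all cells. In cells with 0 mitotic UMIs, the sum was 416.3 CPM at day 160 and 329.7 CPM at day 220, a ratio of 0.792 (0.716 to 0.875). In cells with 1 to 4 mitotic UMIs it was 713.0 and 457.6 CPM. With 0 mitotic UMIs the interval lay below 1 for 9 members and above 1 for 4, and PCNA measured 48.6 and 23.2 CPM. The gap between the days was therefore smaller within cells of like mitotic content than over all cells.

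The replication genes also differed from each other across cells of rising mitotic content. Day 160 cells with 5 or more UMIs of the other members, the gene itself left out, were split into those with 0 to 4 mitotic UMIs (969 cells), 5 to 19 (643 cells) and 20 or more (1304 cells); these cell numbers use the sum of all members. Summed over the members, the level was 2360.6, 5508 and 3615.3 CPM in that order. In 35 of 37 members the level was highest in the middle group, and in GINS1 and RRM2 it was highest in the group with 20 or more. No like count was made over other genes. Cells with 20 or more mitotic UMIs and fewer than 5 UMIs of the other members, 199 in number, summed to 1055.4 CPM. Membership of these groups was set by member UMIs, and 1101 thinned day 160 cells held 4 to 6 of them, near the limit of 5. How many cells with 0 to 4 mitotic UMIs reached that limit by sampling was not tested. Levels in that group, and ratios to it, are therefore not read as a stage of the cycle.

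The ratio of the group with 20 or more to the group with 0 to 4 mitotic UMIs ordered the genes. Its median over the members was 1.44, its interval lay above 1 for 26 members, below 1 for 7 and across 1 for 4. Such intervals were not counted over other genes, at this day or at day 220. MCM5 had the lowest ratio, with 87.2 CPM where mitotic RNA was scarce and 32.7 CPM where it was abundant, at 0.375 (0.316 to 0.444). MCM6 followed at 0.420, MCM2 at 0.634, E2F1 at 0.651, MCM3 at 0.726 and GINS2 at 0.736. At the other end, RRM2 went from 16.6 CPM through 208 CPM to 249 CPM, a ratio of 14.98 (11.96 to 18.99). PCLAF stood at 5.41, TK1 at 4.74, RFC3 at 2.90, TYMS at 2.87 and CDC45 at 2.81. MCM7, at 0.904 (0.829 to 0.986), was the last with an interval below 1, and MCM4, at 0.933 (0.807 to 1.08), spanned 1. Transcripts of MCM2, MCM3, MCM5, MCM6, MCM7, GINS2 and E2F1 were thus more abundant in replication-positive cells with few mitotic transcripts, and those of RRM2, PCLAF, TK1 and TYMS in cells with many. Intervals of neighbours overlapped for MCM5 and MCM6, for MCM2, E2F1, MCM3 and GINS2, for PCLAF and TK1, and for RFC3, TYMS and CDC45. PCNA, at 1.19 (1.10 to 1.28), lay between the 2 ends.

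**Figure D4:**
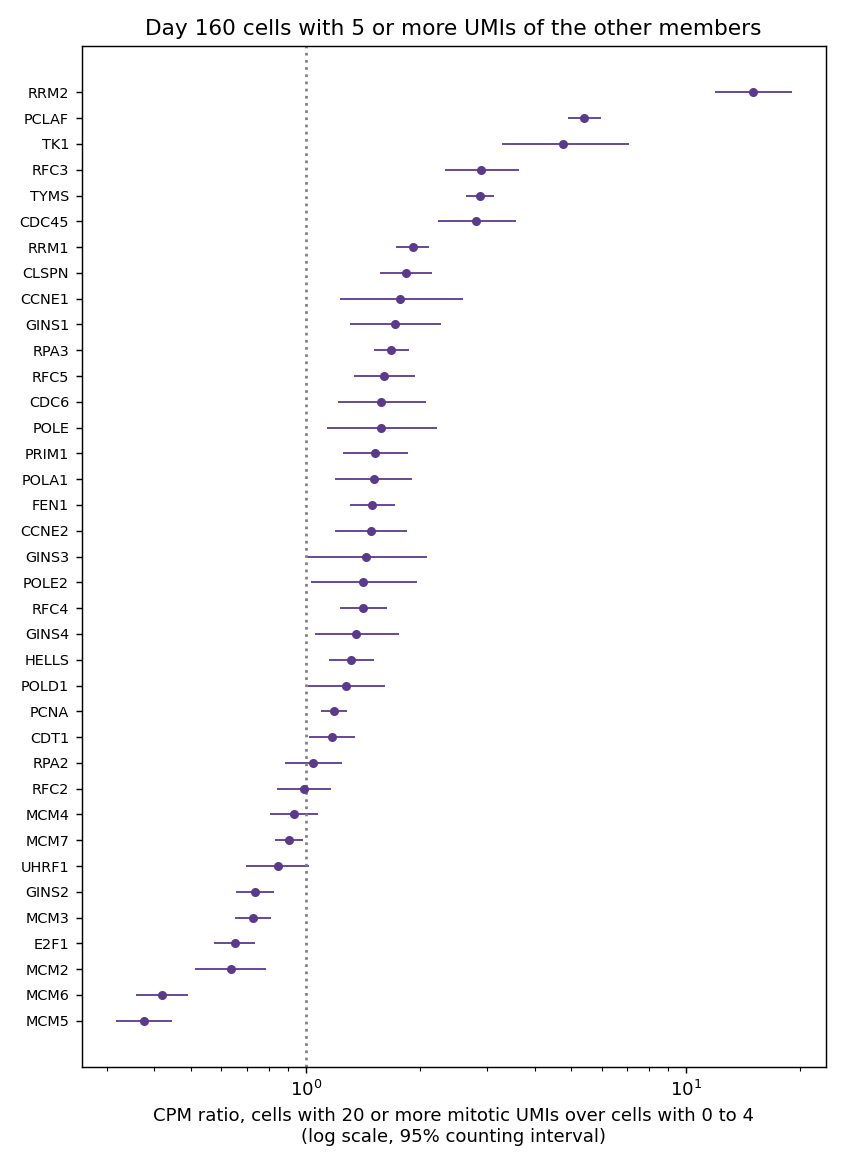
Ratio of CPM (log axis) of each member in day 160 cells with 20 or more mitotic UMIs over cells with 0 to 4, both with 5 or more UMIs of the other members, with 95% counting intervals. RRM2 at 14.98 and MCM5 at 0.375 are the ends of the order, MCM5 overlapping MCM6, and the dotted line marks a ratio of 1.

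This order was set beside the promoter letters shown above. The 19 members with E2F-type letters had a median ratio of 1.32 (0.420 to 2.90), and the 12 without them 1.69 (0.987 to 14.98). MCM2, MCM3, MCM6 and E2F1, each with at least 2 matches, stood below 1, as did MCM7 at 0.904, while HELLS with 2 matches stood at 1.32. RRM2, PCLAF and TK1, the 3 with the highest ratios, had no E2F-type match in the window. RFC3 (2.90) and TYMS (2.87), next in the order, each held 1 match. MCM5, with the lowest ratio, was not matched to a promoter. The 2 sets overlapped in range, and the set was not chosen apart from the data, so this is a description only. At day 220 the same split held 29, 11 and 17 cells. There the interval of the ratio spanned 1 for 27 members, lay above 1 for 9 and below 1 for 0. RRM2 had 0 UMIs in the 29 cells and 24 UMIs in the 17 cells, and PCLAF stood at 10.3 (4.55 to 27.1).

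Genes outside the list with the most like pattern were ranked by Pearson's r of log UMIs with the log of the summed member UMIs over 9279 thinned day 160 cells, among 8330 genes. The cells share 1 library and 1 depth, and r is given as a description. CENPU, a kinetochore gene, came first at 0.65 (0.54 over 494 day 220 cells), then UBE2T, a ubiquitin enzyme of crosslink repair, at 0.64, the histone variant gene H2AFZ at 0.64 and the tubulin gene TUBA1B at 0.63. HMGB2, HMGB1, the histone gene HIST1H4C, the cell cycle factor MYBL2, DEK and the condensin gene SMC2 completed the first 10, with r from 0.61 to 0.52. UBE2T went from 158 to 25.1 CPM between the days and HIST1H4C from 426 to 339 CPM.

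The last comparison asked in which cells of the culture the replication genes were high. Each library was clustered alone after the members, the mitotic genes, the other replication genes and histone genes had been taken out. Clusters are given by number and leading genes, and 3 of them were still led by genes linked to division, such as HMGB2 and UBE2T, so their replication content is not independent of how they formed. At day 160, cluster 3 (HMGB2, UBE2T, PBK) had 5 or more member UMIs in 91.6% of 1376 thinned cells (89.98 to 92.98), with the members summing to 4262.1 CPM. Cluster 6 (HMGB2, HES6, FBLN1) had 80.5% of 584 cells and 3509.2 CPM. Of the 37 members, 35 measured lower in cluster 6 than in cluster 3, with a median ratio of 0.839, and no like count was made over all genes. RRM2 measured 248 CPM in cluster 3 and 172 CPM in cluster 6, TK1 45.1 and 20.9 CPM, and TYMS 443 and 429 CPM. Scrublet marked 9.15% of cluster 3 and 15.7% of cluster 6, against 5.85% of all day 160 cells, and the part of doublets in these levels was not tested.

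Outside these 2 clusters, the share of cells with 5 or more member UMIs ranged from 41.3% to 7.89%. Cluster 5 (GADD45G, LMO1, OLIG1) had 41.3%, and cluster 10 (COL1A1, TAGLN, ACTG2), a group with contractile and matrix genes, 41.0%. The share was 24.8% in cluster 8 (RAMP1, GPC3), 22.7% in cluster 9 (DCX, SERPINA3) and 18.3% in cluster 2 (CALB2, SCGN). Cluster 9 was 87.0% Scrublet-marked cells. Lowest were cluster 4 (CRABP1, HOXB6) at 9.25%, cluster 1 (HLA-DRA, HLA-DPA1, CD74) at 8.31% and cluster 7 (SST, FABP5) at 7.89%. Cluster 1, in which 6 of 12 astrocyte and 6 of 11 radial glia markers were at least 2-fold above the other cells, summed to 423.2 CPM of the members. The members were thus at a like low sum in cluster 1 and in cluster 7, at 419.3 CPM, although the first had glial and the second neuronal and interneuron precursor markers. Cluster 4, with 7 of 12 neuron markers at least 2-fold above the other cells, summed to 423.5 CPM. The share of cells with 5 or more mitotic UMIs was 3.09% in cluster 1 and 0.292% in cluster 7. RRM2 measured 3.06 CPM in cluster 1 and 1.75 CPM in cluster 7, and 16.6 CPM in cluster 5. An 11th cluster held 14 cells, of which 1 reached 5000 UMIs, and is not described.

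At day 220, of 57 cells with 5 or more member UMIs, 19 lay in the small cluster 8, 17 in cluster 1, 8 in cluster 3 and 5 in cluster 2. Cluster 8 (HMGB2, KIF14) held 19 cells, all 19 with 5 or more member UMIs (100%, 82.4 to 100), and 4452.6 CPM of the members. It was not a cluster of its own at Leiden resolution 0.3, where day 220 formed 3 clusters with a highest share of 17.4%. The others ranged from 4.39% in cluster 2 (SPARCL1, EDNRB) to 10.8% in cluster 1 (NPY, PEG10), leaving out a cluster with 6 thinned cells. Of the 37 members, 35 were highest in cluster 8, and no like count was made over all genes. RRM2 measured 284 CPM there and at most 7.02 CPM elsewhere, and TYMS 579 CPM against at most 53.3 CPM. POLA1 measured 242 CPM in cluster 8 and, leaving out the cluster with 6 thinned cells, from 28.6 to 76.9 CPM in the others, on few UMIs in the small clusters. The day 220 counterpart of the contractile group, cluster 4 (COL1A1, ANKRD1, TAGLN), had 6.12% of 49 cells (1.28 to 16.9), against 41.0% of 173 cells in the day 160 cluster led by the same genes COL1A1 and TAGLN. Cluster 3 (OLIG1) had 9.41% of 85 cells. The clusters were made separately in each library, so the COL1A1 pair shares leading genes and is not known to be the same kind of cell.

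**Figure D5:**
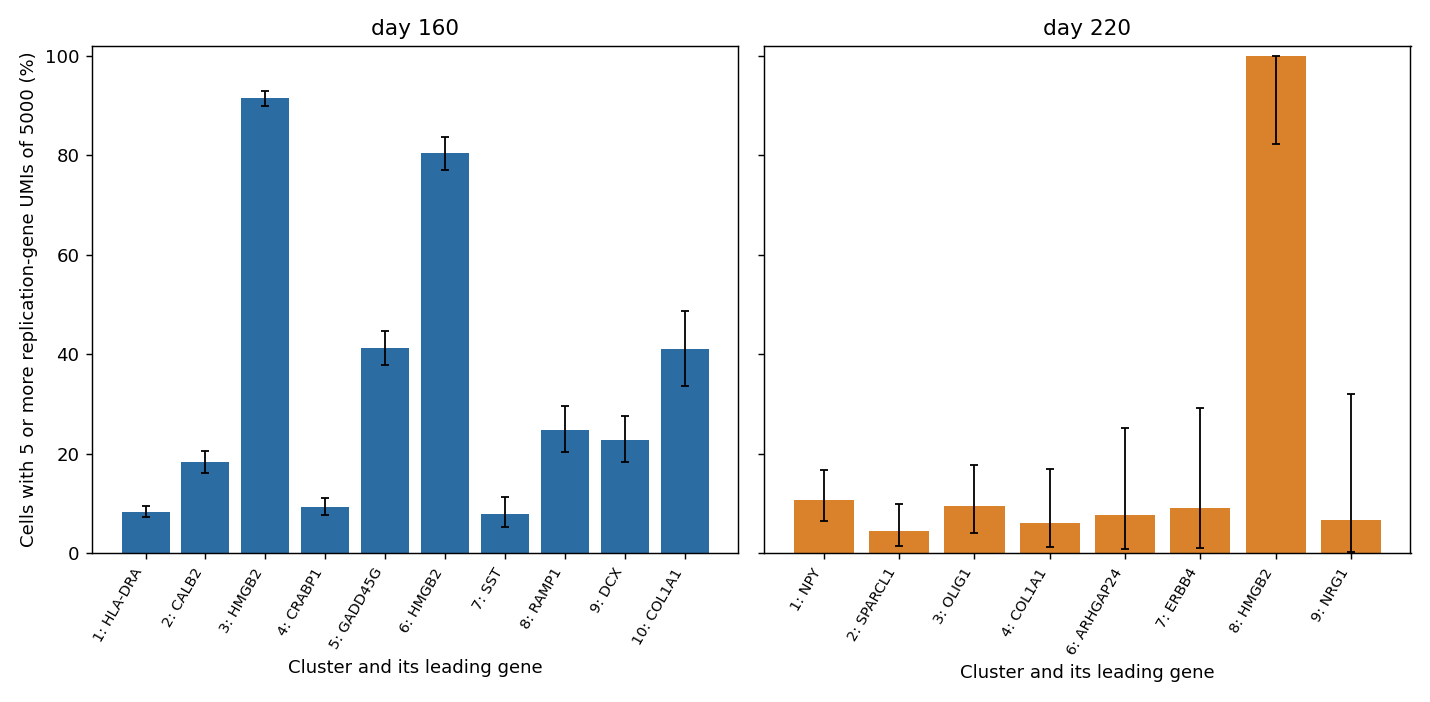
Share of cells (percent) with 5 or more replication-gene UMIs of 5000 in each cluster of 15 or more thinned cells, at day 160 (blue) and day 220 (orange), with 95% Clopper-Pearson intervals. Clusters 3 and 6 at day 160 and cluster 8 at day 220 stand above 80%, and the other day 220 clusters at or below 10.8%.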

How the data were processed

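Raw UMI counts per gene and barcode were used as the authors deposited them, and the file headers name Cell Ranger 7.0.1. The submitters' processing notes name Cell Ranger 7, Seurat 4 and hg38. The sources used here do not give the annotation, intron and strand settings. Barcodes with 1000 or more genes and at most 15% mitochondrial UMIs were kept. Summed counts were scaled to CPM, with exact Poisson intervals for CPM, conditional binomial intervals for ratios and Clopper-Pearson intervals for shares, at 95%, for counting error only. Genes with 10 CPM in at least 1 library were counted. Thinning drew 5000 UMIs per cell (seed 1). Clustering used scanpy 1.11.5 on 10000 counts per cell, 2000 variable genes, 30 components, 15 neighbours and Leiden resolution 0.5. Scripts were tested on simulated data. All 37 members are named. From each comparison list the 4 largest log2 ratios are named, and the 10 genes most alike. Clusters are named by some of their 5 leading genes; 2 of these genes are not reported here. Examples among the members were picked after their values were seen. The members and lists were chosen with earlier results of these data known.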

Additional observations from a re-analysis of the deposited data

How the results depend on the processing

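No paired analysis was possible because each day had 1 library. The count of members at least 2-fold lower stayed between 17 and 26 under changes of barcode filter, doublets, scaling, thinning, weighting, pseudocount and intron centring. With a minimum of 50 CPM it was 8 of 8 counted, of which TYMS alone reached 50 CPM at day 220 (50.1 CPM). The other members counted there passed through day 160, the library where they were higher. The count higher was 0 at 50 CPM, where POLA1 (47.3 CPM at day 220) was not counted. It was also 0 with intron centring, where POLA1 turned to -0.16. For the counts in this section, shares over all genes are given above for the main setting and for centring only. For other replication genes, lower and higher counts were 1 and 0 at 50 CPM and 19 and 1 with centring, for mitotic genes 16 of 16 lower at 50 CPM, and for G1 genes 5 lower at 5 CPM, and 1 lower and 3 higher at 50 CPM. Fewer genes were tested at 50 CPM. The day 160 share of cells with 5 or more member UMIs was 17.6% at 2000 UMIs per cell, 52.7% at 10000, 51.1% unthinned, 30.2% without doublets, 40.8% and 29.4% at mitochondrial limits of 10% and 20%, 47.2% for 3 or more UMIs and 20.9% for 10 or more. At day 220 it was 5.46% at 2000, 27.0% at 10000, 86.3% unthinned, 29.4% for 3 or more and 5.47% for 10 or more. Day 160 was higher except without thinning. The 10% limit left 1849 thinned day 160 cells. Unthinned, 11 of 22 counted members were at least 2-fold higher in mitotic day 220 cells. At Leiden resolution 0.3 the highest day 220 cluster share was 17.4%. GINS1 turned to 0.07 with thinning, and RFC3 and POLE2 turned below 0 at the 10% limit and with centring. The cause of these shifts was not tested. Day 220 states rest on 30 or fewer mitotic cells.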
